A study of Arabidopsis thaliana with 18 samples.

Results

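The change with age inside a PID-overexpressing line of Arabidopsis thaliana was followed in the line P10, by comparing the first leaf pair at 16 DAS (days after stratification) with the same leaves at 9 DAS. The members are 6 libraries of the 16 with values, P10 replicates 1, 2 and 3 at each day, taken by their labelled genotype and day. P10 is in the accession Col-0 and carries the cDNA of PINOID (PID) in sense behind the constitutive 35S promoter of cauliflower mosaic virus, so the transgene is expressed at both days and throughout the plant. P10 is a single transgenic line, and P21 is an independent line with the same construct. WT is Col-0 without the transgene. The labels call the 9 DAS leaves proliferating and the 16 DAS leaves expanding, all plants grew on the same sugar-containing medium without any treatment, and the series design calls the replicates biological. The labels list 18 libraries, of which P21 replicate 1 was not analysed here at either day, so that WT and P10 have 3 libraries per day and P21 has 2.

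PID is a protein kinase of the AGC family that phosphorylates PIN proteins, the plasma membrane carriers of auxin export, and so changes the side of the cell on which they accumulate. A young leaf grows first by cell division. Division then ceases from the tip towards the base while cells enlarge, the wall and cuticle are rebuilt, chloroplasts mature and the leaf turns from importing to exporting sugar. The comparison asks which of these changes were present in P10 between the proliferating and the expanding leaf.

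Poly(A) RNA was sequenced, and the values are reads that map to a single gene. The P10 libraries held 3669731, 2887692 and 1498233 such reads at 9 DAS and 1193042, 2549005 and 2611737 at 16 DAS, and the 16 libraries ranged from 1193042 to 4695692, so that genes with few reads are known less precisely at 16 DAS replicate 1 and 9 DAS replicate 3. Levels below are CPM, reads per 1000000 after scaling between libraries by the trimmed mean of M-values (TMM), given in the order of replicates 1, 2 and 3. A gene is called a DEG where edgeR's quasi-likelihood test gave an adjusted p below 0.05 and the log2 fold change exceeded 0.75 in size, and "rose" and "fell" are used only of such genes. Log2 fold changes (log2FC) are given with their standard error, as value ± SE. The WT and P10 libraries at 9 DAS carried a different second sequencing index from all others, so in P10 and in WT the index and the day cannot be told apart, while in P21 both days lie within 1 index.

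Reads of PID (chromosome 2, 14589760 to 14591788 in TAIR10) come from the native gene and the transgene together. P10 held 510, 446 and 522 CPM at 9 DAS and 755, 748 and 882 CPM at 16 DAS, without overlap, while WT averaged 5.34 ± 0.599 and 3.71 ± 0.516 CPM (SD, n = 3 each). The PID level thus set all 6 P10 libraries apart from WT. It does not tell P10 from P21, whose libraries held 368 and 631 CPM at 16 DAS. The change with age in P10 was 0.69 on the log2 scale (SE 0.16, adjusted p = 0.0018), which is under the fold threshold.

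Genes of the daily clock showed that the 9 DAS libraries differed among themselves. LHY, a morning transcription factor, held 440, 11.9 and 116 CPM at 9 DAS, and GRP7, an RNA-binding protein of the evening, held 34.9, 1177 and 110 CPM, whereas at 16 DAS LHY held 832, 900 and 959 CPM and GRP7 held 29.6, 28.4 and 65.4 CPM. Replicate 2 at 9 DAS was thus low in LHY and high in GRP7, replicate 1 was the reverse, and the 16 DAS libraries were all high in LHY. Replicates 1 and 2 at 9 DAS differed over 2-fold in 14 of 16 clock genes (87.5%), against 7.79% of all genes tested. With P10 and WT at 9 DAS limited to replicates 1 and 3, in which LHY was also below every 16 DAS library, 4716 DEGs were called in P10, 4376 of them among the 5115 of the full set. The part of the clock in the results below was not tested.

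The libraries held few or no reads of genes that mark other organs. The shoot meristem markers reached at most 11 reads in a P10 library, with WUS and UFO at 0, the flower markers at most 9, with AP1 and LFY at 0, and the root markers at most 6, with PLT1, PLT2, COBL9 and CASP1 at 0. The 4 seed storage markers were at 0. The summed epidermal markers were at 167 to 202 CPM at 9 DAS and 123 to 177 CPM at 16 DAS, and the trichome markers at 6.89 to 13.7 and 4.22 to 7.39 CPM.

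Of 16499 genes tested, 5115 (31%) were DEGs in P10 between 16 and 9 DAS. Of these, 2731 (16.6%) were higher and 2384 (14.4%) lower at 16 DAS, and the median log2 fold change of all genes was -0.03. The first principal component of the 6 libraries held 74.5% of the variance and separated the days, and the second held 7.11%. In 4952 of the 5115 DEGs (96.8%) the 3 values of the 2 days did not overlap, compared with 50.5% of all genes tested. Many DEGs named below were picked as the largest changes of their list. Where days that do not overlap are mentioned for them, this describes the values and adds little to the call. With library totals 2349 genes were higher and 2996 lower, and with upper-quartile scaling 2385 and 2960, so that the majority turned with the scaling.

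The rises at the top of the list began with AT5G15500, an ankyrin repeat protein (chromosome 5, 5031676 to 5033500), which had no reads at 9 DAS and 186, 102 and 226 CPM at 16 DAS, at least 493-fold higher when 3 reads are allowed over the 9 DAS group. DIP2 likewise had no reads at 9 DAS and 81.3, 29.1 and 143 CPM at 16 DAS, at least 248-fold higher. SAG29, a sugar transporter of the SWEET family that is induced in senescence and by osmotic stress, went from 8.61, 1.83 and 3.13 CPM to 902, 623 and 603 CPM. The other leading rises were AT4G08570, LEA4-5, GolS2, RD29B, AT1G67865, PUB19 and HAI1, of which LEA4-5, GolS2, RD29B and HAI1 are described below with the genes of abscisic acid. PUB19, a ubiquitin ligase of the drought response, rose 116-fold (log2FC 6.86 ± 0.71, adjusted p = 1.7e-05).

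Among the leading falls, AT4G22490, AT4G22485 and LTP2 encode small proteins of the lipid-transfer type. LTP2 had 27.6, 46.3 and 43.9 CPM at 9 DAS and 0, 0 and 1.19 CPM at 16 DAS, a ratio of 79.4 with a 95% counting interval of 26.9 to 387. AT4G22490 was at 30.9, 49.1 and 29.4 CPM at 9 DAS and at 0.821, 0 and 0 CPM at 16 DAS, a ratio of 237 (42.3 to 9.41e+03), an interval wide enough that only the order of magnitude is fixed. DCR, an acyltransferase needed for cutin, fell from 110, 139 and 117 CPM to 3.28, 2.68 and 1.98 CPM (log2FC -5.56 ± 0.23, adjusted p = 1.9e-12). PDF1, a cell wall protein of the protoderm, fell from 394, 441 and 492 CPM to 18.9, 9.58 and 12.7 CPM, by 5.08 on the log2 scale (SE 0.32, adjusted p = 8.1e-09). AT3G05727, CYP77B1, AT4G29030, AT2G33850 and AT1G63100 completed the 10 leading falls. That the days do not overlap in these genes is part of how they were chosen.

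The machinery of mitosis fell as a whole. All 33 tested genes of the mitosis and cytokinesis list fell, with a median log2 fold change of -3.5, and their summed level went from 717 to 941 CPM at 9 DAS to 66.3 to 82.8 CPM at 16 DAS. KNOLLE, the syntaxin that fuses membranes at the growing cell plate, had 73.7, 92.3 and 107 CPM at 9 DAS and 10.7, 8.05 and 6.34 CPM at 16 DAS, 11.2-fold lower (log2FC -3.49 ± 0.24, adjusted p = 1e-09). CDKB2;1, a kinase of the entry into mitosis, went from 27.1, 31.7 and 26.3 CPM to 1.64, 2.3 and 4.36 CPM, and CYCB1;1, a mitotic cyclin, from 14.7, 17.1 and 14.4 CPM to 1.64, 0.766 and 2.38 CPM. The days did not overlap for any of these genes. PLE, a microtubule bundling protein of the phragmoplast, fell by 3.93 on the log2 scale (SE 0.5, adjusted p = 7.8e-06). CYCB2;1 was at 6.58, 7.31 and 6.27 CPM and then at 0, 0.383 and 0 CPM, and rests on 1 read at 16 DAS. In bulk leaf RNA, fewer dividing cells and less RNA per cell cannot be told apart.

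Genes of mitosis in plants often carry a mitosis-specific activator element bound by 3-repeat MYB factors, here searched as CAACGG or TAACGG on both strands of the 250 bases before the gene start. It was found at 16 of the 33 tested members (48.5%) and at 11.9% of all tested genes with such a window (1959 of 16474). Stretches upstream of 4 members that fell are shown because they carry this element, in capitals in either orientation, 5′ to 3′ on the strand of the gene in the RefSeq build TAIR10.1. KNOLLE has it at chr1:2711001-2711033 (minus strand), PLE at chr5:20964608-20964657 (minus strand), CYCB2;1 at chr2:7663898-7663998 (plus strand) and CYCB1;1 at chr4:17624340-17624496 (minus strand), and the last pair holds 2 copies each.
KNOLLE: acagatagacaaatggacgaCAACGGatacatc
PLE: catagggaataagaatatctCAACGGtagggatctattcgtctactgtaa
CYCB2;1: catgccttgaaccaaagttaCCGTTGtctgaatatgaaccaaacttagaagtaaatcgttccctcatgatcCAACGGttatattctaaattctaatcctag
CYCB1;1: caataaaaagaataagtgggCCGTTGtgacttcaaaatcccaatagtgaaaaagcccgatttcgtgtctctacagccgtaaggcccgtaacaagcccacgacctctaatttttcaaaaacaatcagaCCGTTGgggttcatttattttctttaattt
A match is a run of letters and was not tested for binding.

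Cell cycle control genes were mixed. Of 26 tested, 14 fell and 1 rose, with a median log2 fold change of -1.32. CYCD3;1, a D-type cyclin that responds to cytokinin and keeps leaf cells dividing, went from 61, 58.8 and 60.8 CPM to 10.7, 11.5 and 6.34 CPM, 6.41-fold lower (log2FC -2.68 ± 0.27, adjusted p = 1.5e-07). The member that rose was SMR1, an inhibitor of cyclin-dependent kinases that favours endoreduplication, with 19.2, 10.7 and 15.7 CPM at 9 DAS and 32.8, 36 and 42 CPM at 16 DAS (log2FC 1.29 ± 0.22, adjusted p = 7.2e-05). CCS52A1, an activator of the anaphase-promoting complex that also promotes endoreduplication, was lower at 16 DAS, at 10.9, 8.23 and 12.5 CPM against 4.1, 4.98 and 3.17 CPM. KRP3, another inhibitor of cyclin-dependent kinases, had no reads in the 3 libraries at 16 DAS and was at least 6.47-fold lower. Inhibitors of the cycle thus went both ways.

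DNA replication genes fell together as well, 23 of 28 tested with none higher and a median log2 fold change of -1.93. PCNA1, the sliding clamp of the DNA polymerase, had 19.5, 19.8 and 26.3 CPM at 9 DAS and 1.64, 3.07 and 4.75 CPM at 16 DAS (log2FC -2.64 ± 0.32, adjusted p = 1.4e-06). MCM2, a subunit of the replicative helicase, went from 15.4, 26.8 and 16.3 CPM to 4.1, 3.45 and 4.75 CPM, and MCM5 of the same helicase from 20.5, 31.4 and 18.2 CPM to 5.75, 3.83 and 9.11 CPM. None of the 3 genes overlapped between days, and in both helicase subunits replicate 2 was the highest at 9 DAS. CDT1B, which loads the helicase, fell by 3.34 on the log2 scale (SE 0.45, adjusted p = 6.2e-06). TSO2, a subunit of ribonucleotide reductase, was at 167, 147 and 148 CPM and then at 174, 219 and 98.7 CPM and was not a DEG.

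The E2F factors that switch on replication genes bind a site searched here as TTTCCCGC, TTTGGCGC, TTTCGCGC or TTTGCCGC on both strands of the same window. It was present at 10 of 28 tested replication genes (35.7%), at 9 of the 23 that fell (39.1%), and at 243 of 16474 genes in all (1.48%). The stretches of both helicase subunits are shown, with the site in capitals, from chr1:16970180-16970213 (plus strand) for MCM2 and chr2:3527501-3527539 (minus strand) for MCM5. 
MCM2: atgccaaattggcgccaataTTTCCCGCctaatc
MCM5: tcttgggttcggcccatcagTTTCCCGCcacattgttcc

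Canonical histones, which package newly made DNA, fell in 22 of 26 tested genes with a median of -1.51, and their summed level went from 2636 to 2653 CPM at 9 DAS to 955 to 998 CPM at 16 DAS, with little spread within a day. HTR2, a histone H3 gene, held 121, 112 and 113 CPM at 9 DAS and 24.6, 30.3 and 19 CPM at 16 DAS, 4.67-fold lower (log2FC -2.22 ± 0.17, adjusted p = 4.6e-09). HTR9 and HTA13 fell by 2.3 and 2.28 on the log2 scale. Several histone genes are nearly identical in sequence, and reads shared between copies are left out of these counts, so that the level of a single copy is uncertain.

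**Figure D1:**
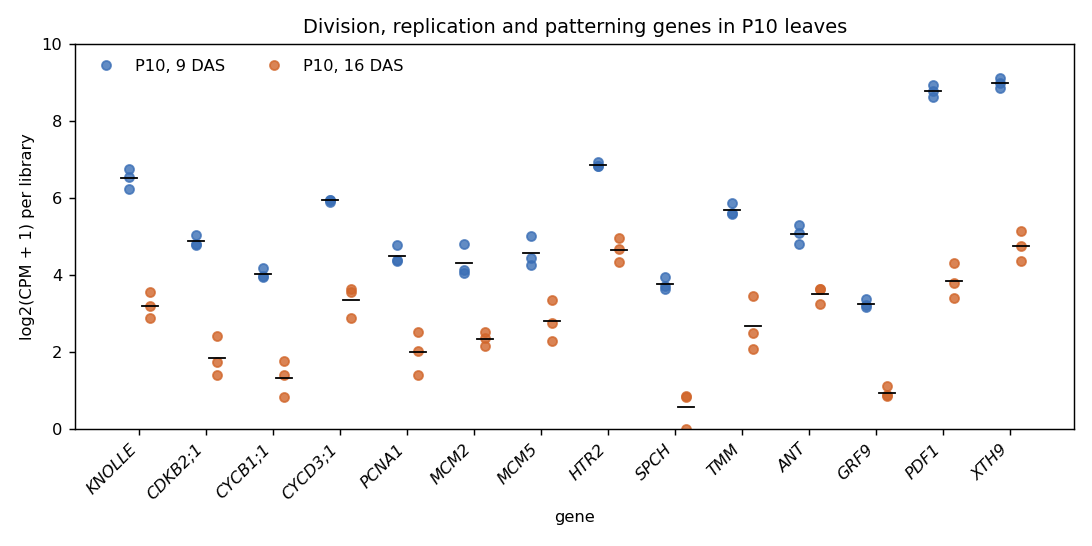
Level of 14 genes of division, replication, stomatal lineage, growth control and young epidermis in each P10 library, as log2(CPM + 1) on the vertical axis, with 9 DAS in blue, 16 DAS in orange and a bar at each mean of 3 libraries. All 14 genes lay lower at 16 DAS with no overlap between the days, KNOLLE between 73.7 and 107 CPM at 9 DAS and between 6.34 and 10.7 CPM at 16 DAS.

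Growth regulators that keep leaf cells dividing fell. Of 15 tested GRF and GIF genes and their relatives, 9 fell and 1 rose, with a median of -1.77. GRF9 went from 8.35, 7.92 and 9.4 CPM to 0.821, 1.15 and 0.792 CPM, and GIF1, the coactivator of the GRF factors also known as AN3, from 12.1, 12.8 and 10 CPM to 2.46, 1.53 and 2.77 CPM. ANT, an AP2-type factor that prolongs division, went from 32.9, 38.1 and 26.9 CPM to 11.5, 8.43 and 11.5 CPM (log2FC -1.68 ± 0.24, adjusted p = 1.2e-05). These 3 genes did not overlap between days. GRF5 had no reads at 16 DAS and was at least 10.8-fold lower, and KLU, a cytochrome P450 that promotes organ growth, was at least 5.52-fold lower. TCP4, a TCP factor that ends division in the leaf, held 68.6, 92.3 and 62.7 CPM and then 55, 40.6 and 50.3 CPM and was not a DEG, while 2 of the 8 genes in its list rose and none fell. In that list 4 were called without P10 replicate 1 at 9 DAS, and with library totals 2 rose and 3 fell. Of all genes tested 16.6% rose and 14.4% fell.

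Of 14 leaf polarity genes 3 were higher and 2 lower, near the 16.6% higher and 14.4% lower of all genes tested. FIL, a YABBY factor of the lower leaf side, fell from 34.9, 39.6 and 43.2 CPM to 11.5, 16.5 and 8.72 CPM (log2FC -1.65 ± 0.22, adjusted p = 5.4e-06). AS2, which represses class I KNOX genes in the leaf, fell by 2.2 on the log2 scale.

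The stomatal lineage genes fell in 12 of 15 tested, none higher, with a median of -2.18. SPCH, the basic helix-loop-helix factor that starts the lineage, had 12.1, 14.3 and 11.3 CPM at 9 DAS and 0, 0.766 and 0.792 CPM at 16 DAS, 19-fold lower (log2FC -4.25 ± 0.5, adjusted p = 9.8e-07). TMM, the receptor-like protein that spaces stomata, went from 47.6, 46.9 and 57.6 CPM to 9.85, 4.6 and 3.17 CPM. POLAR and BASL, which mark cell polarity in the dividing lineage cells, fell too, BASL with 1 read left at 16 DAS, and so did EPF2, a peptide that restricts entry into the lineage, from 11.1, 12.2 and 9.4 CPM to 0, 0.383 and 0 CPM. In each of these genes the 3 old libraries lay below the 3 young ones, and days without overlap were found in 96.8% of all DEGs. SPCH, BASL and EPF2 were at or near 0 in all old libraries. Genes of mature guard and myrosin cells were less uniform, 1 of 8 higher and 2 lower, beside 16.6% higher and 14.4% lower of all genes. ALMT12, an anion channel that guard cells open to close the pore, rose from 9.11, 7.31 and 5.64 CPM to 26.3, 28.4 and 18.2 CPM, while KAT2, a guard cell potassium channel, fell by 1.44 on the log2 scale. TGG2, a myrosinase that hydrolyses glucosinolates, fell from 879, 860 and 801 CPM to 387, 349 and 450 CPM (log2FC -1.1 ± 0.14, adjusted p = 3.3e-06).

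Of 17 XTH genes, whose enzymes cut and rejoin xyloglucan, 8 fell and 4 rose, and of 16 expansins 4 rose and 2 fell, beside 16.6% higher and 14.4% lower of all genes. XTH9 went from 465, 507 and 556 CPM to 34.5, 19.5 and 25.8 CPM, 19.7-fold lower (log2FC -4.3 ± 0.23, adjusted p = 3.4e-11), and XTH16 from 157, 76.2 and 133 CPM to 9.03, 8.81 and 4.36 CPM. EXPA11 rose from 3.8, 11.3 and 3.13 CPM to 66.5, 46 and 101 CPM, and EXPA6 fell from 147, 135 and 174 CPM to 50.9, 67.8 and 63.8 CPM. The days were apart in each of these genes. EXPA1 rose by 1.35 and EXPA10 had a log2 fold change of -0.75 with an adjusted p of 0.15. Of 8 genes of primary wall cellulose synthesis 1 rose, and of 10 genes of secondary walls and xylem 1 fell, with 3 called without P10 replicate 2 at 9 DAS.

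Aquaporins, the water channels of membranes, were split evenly, 6 of 16 higher and 6 lower, beside 16.6% higher and 14.4% lower of all genes. At 9 DAS 10 of the 16 genes had replicate 1 above 3 above 2, as did LHY and 2984 of all 16499 genes. The part of that order in the result was not tested. TIP2;2 of the vacuolar membrane rose from 22.3, 7.01 and 14.4 CPM to 152, 108 and 146 CPM (log2FC 3.19 ± 0.36, adjusted p = 9.6e-06). PIP2;8 of the plasma membrane fell from 38, 39.3 and 32.6 CPM to 4.93, 6.13 and 2.77 CPM, by 3 on the log2 scale. PIP2;2, which shares long stretches with a neighbouring copy, rose by 1.93.

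Of 20 genes of wax and cutin, 9 rose and 2 fell. KCS2, which lengthens fatty acids for suberin and wax, went from 4.56, 3.35 and 0.627 CPM to 167, 106 and 182 CPM, 45.2-fold higher (log2FC 5.5 ± 0.31, adjusted p = 1.8e-10). WSD1, the synthase of wax esters, rose from 1.01, 0.609 and 1.88 CPM to 29.6, 6.9 and 17 CPM. DCR was 1 of the 2 that fell. The 2 enzymes that rose were at their highest in different old replicates, and neither overlapped with 9 DAS.

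Of 187 tested ribosomal protein genes 95 fell and 1 rose, with a median log2 fold change of -0.77, and their summed level went from 29770 to 36800 CPM at 9 DAS to 17920 to 22120 CPM at 16 DAS. AT3G56020, a gene of the small protein L41, held 157, 130 and 177 CPM and then 34.5, 50.6 and 44 CPM (log2FC -1.82 ± 0.22, adjusted p = 1.9e-06), and AT1G23410, a fusion of ubiquitin and protein S27a, fell from 11.1, 9.75 and 11.9 CPM to 0.821, 1.15 and 0.792 CPM. The member that rose was AT5G39850, of protein S4, from 3.04, 0.305 and 3.13 CPM to 11.5, 10.7 and 9.11 CPM. The median lies near the fold threshold, and the number called varied with the fit: it was 77 without P10 replicate 3 at 16 DAS, 125 without P10 replicate 2 at 9 DAS and 125 with scaling to library totals, of which 124 fell, and it ranged from 17 to 153 over the alternatives other than leaving out a single library. At 9 DAS 110 of the 187 genes had replicate 1 above 3 above 2, as did 2984 of all 16499 genes tested and LHY, and its part in the result was not tested.

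Ribosomal protein promoters are known for a pair of short elements. The site II element, searched as TGGGCC or TGGGCT, was found before 128 of the 187 genes (68.4%) against 24.2% of all genes, and the telo-box, searched as AAACCCTA, before 32 (17.1%) against 3.63%.

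Genes of the light reactions were level or lower. Of 48 genes of the light-harvesting complexes, photosystems and electron transport, 11 fell and none rose, with a median of -0.53, and their summed level was 154300 to 192300 CPM at 9 DAS and 101800 to 129900 CPM at 16 DAS. LHCB1.4, a chlorophyll-binding protein of the antenna of photosystem II, had 2594, 4804 and 5202 CPM at 9 DAS and 682, 774 and 635 CPM at 16 DAS (log2FC -2.59 ± 0.36, adjusted p = 8.5e-05). Its relative LHCB1.1 went from 10533, 10493 and 13506 CPM to 4268, 4402 and 4761 CPM, and LHCA1 of the antenna of photosystem I from 6193, 7323 and 7936 CPM to 3187, 3382 and 4309 CPM. These 3 did not overlap between days. PSBO1, a subunit of the oxygen-evolving complex, held 4891, 5000 and 5326 CPM and then 4778, 4531 and 5489 CPM, which overlap. The number that fell was 7 without P10 replicate 3 at 9 DAS and 18 without replicate 1, and the LHCB1 copies share much of their sequence.

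Carbon fixation and photorespiration went the other way. Of 20 Calvin cycle genes 7 rose and none fell, with a median of 0.52, and of 13 tested photorespiration genes 8 rose and none fell, with a median of 1.16. RCA, which reactivates Rubisco, was at 9324, 3757 and 6530 CPM and then at 15203, 14573 and 15922 CPM (log2FC 1.22 ± 0.3, adjusted p = 0.0048), while RBCS1A, a small subunit of Rubisco with near-identical copies, was at 19581, 15721 and 21672 CPM and then at 16815, 19746 and 19337 CPM. GLDP1, a subunit of the glycine decarboxylase of leaf mitochondria, rose from 1943, 780 and 878 CPM to 6124, 5362 and 6096 CPM (log2FC 2.29 ± 0.4, adjusted p = 0.00073). CAT2, the peroxisomal catalase of photorespiration, rose from 652, 85.3 and 224 CPM to 4001, 3481 and 3746 CPM. In CAT2 the young libraries differed among themselves and the old ones did not. The same order, replicate 1 above 3 above 2, held at 9 DAS in 13 of 13 photorespiration genes and 17 of 20 Calvin cycle genes, as it did in LHY, and in 2984 of all 16499 genes. Without P10 replicate 2 at 9 DAS, 4 Calvin cycle genes were called.

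Of 14 chlorophyll synthesis genes 4 fell and none rose, with a median of -0.21. The counts in this paragraph are to be read beside 16.6% higher and 14.4% lower of all genes tested. At 9 DAS 9 of the 14 genes had replicate 1 above 3 above 2, as did 2984 of all 16499 genes. PORB, a light-dependent reductase of protochlorophyllide, held 540, 2855 and 1341 CPM at 9 DAS and 85.4, 76.3 and 109 CPM at 16 DAS (log2FC -4.13 ± 0.84, adjusted p = 0.0026), with replicate 2 again the extreme at 9 DAS. GSA2, an enzyme early in the pathway, fell from 410, 386 and 389 CPM to 140, 195 and 147 CPM, by 1.29 on the log2 scale. Of 16 genes of chloroplast biogenesis 6 rose, among them SIG5, a sigma factor of the plastid polymerase, from 37.7, 9.14 and 19.4 CPM to 418, 331 and 388 CPM, and FTSH8, a protease that repairs photosystem II, by 1.97. NYE1, which starts chlorophyll breakdown, was 1 of 2 risers among 6 genes of that process, from 17.7, 10.4 and 10.7 CPM to 60.7, 41.8 and 43.2 CPM.

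Abscisic acid (ABA) is the hormone that accumulates when water is short, and it acts through receptors that block protein phosphatases of type 2C, which frees kinases that switch on protective genes. Of 22 tested genes of ABA synthesis and signalling, 16 rose and 3 fell, with a median of 1.97, and their summed level went from 901 to 1250 CPM at 9 DAS to 3553 to 5165 CPM at 16 DAS. Of 24 tested genes that respond to ABA, cold and drought, 20 rose and none fell, with a median of 3.78, and the sum went from 654 to 1087 CPM to 6553 to 10730 CPM.

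NCED3, the enzyme that limits ABA production under drought, held 1.01, 1.83 and 0.627 CPM at 9 DAS and 81.3, 54.8 and 80.8 CPM at 16 DAS, 55.9-fold higher (log2FC 5.8 ± 0.41, adjusted p = 1.5e-09). Among the phosphatases that hold the pathway back, ABI1 rose from 27.8, 43.9 and 19.4 CPM to 473, 316 and 440 CPM (log2FC 3.72 ± 0.32, adjusted p = 3.8e-07). HAI1, of the same clade and strongly induced by ABA, rose from 4.56, 1.52 and 1.25 CPM to 310, 129 and 258 CPM (log2FC 6.36 ± 0.69, adjusted p = 2.3e-05), and HAI2 from 0, 1.52 and 0.627 CPM to 47.6, 28.4 and 76.1 CPM. The 3 old libraries were far above all 3 young ones in each gene, and replicate 2 was the lowest of them.

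Among the response genes, RD29B held 0.506, 0.609 and 0.627 CPM at 9 DAS and 112, 43.3 and 86 CPM at 16 DAS (log2FC 7.01 ± 0.7, adjusted p = 2.4e-06). Its neighbour RD29A, which also answers to cold, rose from 34.4, 55.5 and 33.8 CPM to 292, 125 and 277 CPM. LEA4-5, a hydrophilic protein that accumulates in dry tissue, went from 0.253, 0.305 and 0 CPM to 102, 37.6 and 81.2 CPM, a ratio of 297 with a counting interval of 81.7 to 2.46e+03. Replicate 2 was again the lowest at 16 DAS in all 3. LEA7 and TSPO, a membrane protein induced by ABA, had no reads at 9 DAS and were at least 46.3-fold and 58.4-fold higher. GolS2, which makes galactinol for protective sugars, rose from 1.01, 0 and 0.627 CPM to 169, 99.6 and 129 CPM, a log2 fold change of 7.75 (SE 0.68, adjusted p = 1.3e-06), which at so few reads at 9 DAS depends on the prior count of the fit. RAB18 rose by 4.11 and COR15A, a cold-induced plastid protein, by 3.02 on the log2 scale. HIS1-3, a linker histone induced by drought, rose from 3.04, 2.13 and 4.39 CPM to 174, 136 and 132 CPM (log2FC 5.6 ± 0.34, adjusted p = 5.4e-10). The number of the 24 response genes called was 20 to 21 whichever library was left out.

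Factors that carry ABA signals bind the ABA-responsive element, searched here as ACGTGGC or ACGTGTC on both strands. It was found in the 250 bases before 6 of the 24 response genes (25%) and before 7.72% of all genes (1271 of 16474). The stretches of 3 genes that rose are shown with the element in capitals in either orientation: RD29B at chr5:21236938-21237020 (plus strand) holds 3 copies, LEA4-5 at chr5:2090454-2090517 (minus strand) 2 and LEA7 at chr1:19619487-19619574 (plus strand) 2.
RD29B: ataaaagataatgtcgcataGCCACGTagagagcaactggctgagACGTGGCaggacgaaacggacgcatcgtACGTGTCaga
LEA4-5: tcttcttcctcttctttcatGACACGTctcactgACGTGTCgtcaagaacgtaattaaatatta
LEA7: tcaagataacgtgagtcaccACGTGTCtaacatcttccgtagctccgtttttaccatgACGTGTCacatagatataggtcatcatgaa

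Of 21 iron and copper genes 14 rose and 2 fell, with a median of 1.68. BHLH38, a factor that switches on iron uptake, held 246, 149 and 168 CPM at 9 DAS and 1043, 1280 and 496 CPM at 16 DAS (log2FC 2.32 ± 0.5, adjusted p = 0.0033). FRO2, the reductase of ferric iron best known from the root, rose from 2.02, 0.914 and 1.25 CPM to 27.1, 51.7 and 20.2 CPM, and its partner transporter IRT1 from 0.253, 0 and 0 CPM to 8.21, 14.6 and 1.98 CPM, a ratio of 73.7 (12.7 to 2.96e+03). Replicate 2 was the highest and replicate 3 the lowest of the old libraries in all 3, the root markers stayed at 6 reads or fewer, and no old library overlapped with a young one. NAS4, a nicotianamine synthase, rose by 3.53. For FER1, a ferritin of the plastid, the 6 libraries held no unique reads and 93 reads once reads shared between genes were counted, so that its level was not assessed.

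Genes of phosphate starvation rose in 8 of 12 tested with none lower, at a median of 1.39. PS2, a pyrophosphatase used as a starvation marker, rose from 3.29, 0.609 and 3.76 CPM to 24.6, 34.5 and 23 CPM (log2FC 3.49 ± 0.55, adjusted p = 5.6e-05), PAP17, a purple acid phosphatase, from 35.9, 27.7 and 18.8 CPM to 246, 262 and 188 CPM, and PHO1;H1, a phosphate exporter, from 4.05, 2.13 and 0 CPM to 15.6, 23.8 and 25.8 CPM. The days were apart in each. The factors of this response bind an element searched as GNATATNC. It was found before 4 of the 12 genes (33.3%), 2 of the 8 that rose (25%) and 5.4% of all genes. PS2 carries it, in capitals, at chr1:27466536-27466585 (minus strand).
PS2: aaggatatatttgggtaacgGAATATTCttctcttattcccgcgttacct

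Nitrate uptake and assimilation rose in 7 of 13 genes with none lower, at a median of 1.05. NIA2, a nitrate reductase, rose from 304, 121 and 174 CPM to 1354, 1694 and 911 CPM. NRT1.5, which loads nitrate into the xylem, rose from 1.01, 0.609 and 0 CPM to 30.4, 23 and 23 CPM (log2FC 5.12 ± 0.56, adjusted p = 1.7e-06), and NRT1.7, which moves nitrate out of old leaves in the phloem, by 2.85.

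Sugar export and storage rose. Of 27 genes of sugar transport and starch 15 rose and 1 fell, with a median of 1.03. SWEET11, which releases sucrose next to the phloem, held 34.7, 26.2 and 18.2 CPM at 9 DAS and 195, 170 and 217 CPM at 16 DAS (log2FC 2.84 ± 0.19, adjusted p = 7.5e-10). SUC2, which loads that sucrose into companion cells, went from 75.7, 69.5 and 58.9 CPM to 407, 427 and 503 CPM (log2FC 2.7 ± 0.18, adjusted p = 8.3e-10), and SPSC, a sucrose phosphate synthase, from 96.2, 16.1 and 23.8 CPM to 520, 477 and 564 CPM. SPSC was the most uneven of the 3 at 9 DAS, and no gene overlapped between days. All 4 markers of companion cells rose, their sum from 174 to 211 CPM to 867 to 1078 CPM, and the share of phloem in the leaf was not measured. APL3, a subunit of the enzyme that limits starch synthesis, rose from 33.2, 31.4 and 23.2 CPM to 410, 167 and 545 CPM, and SUS1, a sucrose synthase, by 4.02. Genes that sugar starvation induces fell in 4 of 11, DIN10 from 89.6, 172 and 155 CPM to 23, 11.9 and 15.5 CPM.

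Glucosinolates are the sulphur-rich defence compounds of the cabbage family. Of 18 tested genes of the aliphatic branch 15 rose and none fell, with a median of 1.31, and of 9 genes of the indole branch 7 rose. MYB28, which switches on the aliphatic branch, rose from 56.7, 50.6 and 43.9 CPM to 215, 198 and 251 CPM (log2FC 2.12 ± 0.17, adjusted p = 9.1e-09). MAM3, which lengthens the side chain, rose from 0.506, 0.609 and 0 CPM to 36.1, 8.43 and 25.4 CPM, FMOGSOX1, which oxidises it, by 2.23, and MYB51 of the indole branch by 2.51. MBP1, a protein that binds the hydrolysing myrosinases, rose from 24.6, 14 and 7.52 CPM to 54.2, 62.1 and 135 CPM.

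Phenylpropanoid and early flavonoid genes rose in 7 of 14 with none lower, at a median of 1.72. PAL2, the entry enzyme, rose from 175, 86.5 and 105 CPM to 497, 438 and 686 CPM, and 4CL1 from 158, 81.1 and 93.4 CPM to 514, 547 and 501 CPM. CHS, the entry to flavonoids, held 602, 100 and 226 CPM and then 801, 614 and 1399 CPM and was not a DEG (adjusted p = 0.13). Replicates 1 and 2 at 9 DAS differed over 2-fold in 10 of these 14 genes (71.4%), and 4 were called without replicate 2 and 11 without replicate 1. In the anthocyanin branch 5 of 12 tested genes rose and 1 fell, with a median of 0.96. UGT75C1, which adds a glucose to anthocyanins, rose from 43.8, 19.2 and 18.8 CPM to 109, 112 and 211 CPM. DFR, the first enzyme of the branch, was at 234, 52.1 and 105 CPM and then at 146, 133 and 417 CPM, and LDOX, the next, at 228, 53 and 92.7 CPM and then at 114, 111 and 268 CPM, so that the days overlap for both. The 6 called genes were 3 without P10 replicate 3 at 16 DAS, the library in which DFR and LDOX were highest.

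Of 20 Aux/IAA genes 8 rose and none fell, among them IAA1, from 13.7, 7.62 and 8.77 CPM to 75.5, 60.2 and 66.6 CPM, and IAA28, from 6.58, 3.96 and 6.27 CPM to 41, 36 and 41.2 CPM (log2FC 2.81 ± 0.31, adjusted p = 4.2e-07). Of 16 auxin carriers 3 rose and 4 fell, or 4 in all without P10 replicate 3 at 16 DAS, beside 16.6% higher and 14.4% lower of all genes. PIN3, an exporter of auxin, was at 136, 81.1 and 113 CPM and then at 117, 135 and 126 CPM (adjusted p = 0.52), and the days overlap. PIN5, which acts inside the cell, had no reads at 9 DAS and was at least 6.95-fold higher. Of 14 genes of auxin synthesis and inactivation 4 fell and 1 rose, or 3 in all without the same library. Those that fell include 3 of the GH3 enzymes that conjugate auxin: GH3.3 went from 10.6, 3.35 and 10.7 CPM to 0, 0.766 and 0.396 CPM, GH3.2 was at least 6-fold lower and GH3.5 fell by 1.94 on the log2 scale. Of 6 tested genes of PID, its related kinases and its binding partners 2 fell, or 1 without P10 replicate 3 at 16 DAS.

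Other hormone lists were mixed, and are to be read beside the 16.6% higher and 14.4% lower of all genes. Of 13 cytokinin genes 5 rose and 3 fell, with a median of 0.34, and ARR9, an early response regulator, rose from 41, 21.6 and 29.4 CPM to 94.4, 113 and 90.3 CPM. Of 15 gibberellin genes 3 rose and 1 fell, or 7 in all without P10 replicate 1 at 9 DAS, with GASA1, a small cell wall peptide induced by the hormone, going from 16.5, 11.6 and 21.9 CPM to 39.4, 29.5 and 34.1 CPM (log2FC 1.07 ± 0.27, adjusted p = 0.0043). GA2OX1, which inactivates gibberellin, rose with a ratio of 20.8 (6.69 to 105). Brassinosteroid genes rose in 2 of 11 and fell in 4, BR6OX2, the last enzyme of synthesis, from 45.6, 33.5 and 38.8 CPM to 7.39, 8.81 and 7.13 CPM (log2FC -2.32 ± 0.25, adjusted p = 3.9e-07) and DWF1, an earlier one, from 581, 656 and 687 CPM to 203, 228 and 202 CPM, while BES1, the factor that carries the signal, rose by 1.8. Of 8 ethylene genes 1 rose and 2 fell, and 1 was called without P10 replicate 2 at 9 DAS. Jasmonate genes rose in 6 of 16 and fell in 2: MYC2, the central factor, rose by 1.77 and JAZ10, a repressor, fell with a ratio of 9.11 (2.89 to 46.1).

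Of 10 genes of salicylic acid and defence 1 rose and 1 fell, beside 16.6% higher and 14.4% lower of all genes. PR5, a thaumatin-like protein of the salicylic acid response, was at 3.8, 4.27 and 5.01 CPM at 9 DAS and at 0, 0.383 and 0 CPM at 16 DAS, a ratio of 26.6 (4.49 to 1.08e+03). THI2.2, a thionin, fell from 40.5, 29.9 and 42.6 CPM to 3.28, 9.96 and 9.51 CPM. PR1 had 10 reads in the P10 libraries together and was not tested. Of 15 genes of senescence and nitrogen recycling 5 rose and 2 fell, and the sum of the list went from 310 to 411 CPM at 9 DAS to 1149 to 1475 CPM at 16 DAS. NAP, a NAC factor of senescence, rose from 2.28, 0.305 and 2.51 CPM to 31.2, 13 and 53.1 CPM, and ORE1, another, had no reads at 9 DAS and was at least 15.8-fold higher, while SAG12, the usual marker of advanced senescence, had no reads in any P10 library. Among 22 antioxidant and glutathione transferase genes 7 rose and 1 fell, VTC2, which limits ascorbate synthesis, from 481, 148 and 211 CPM to 2023, 1623 and 2503 CPM.

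Of 14 genes of the juvenile to adult change and flowering 4 rose and 1 fell, beside 16.6% higher and 14.4% lower of all genes. SPL11 rose from 12.9, 5.79 and 7.52 CPM to 32, 36.8 and 42.4 CPM. TOE1 rose from 87.6, 93.2 and 78.9 CPM to 252, 183 and 360 CPM. SPL9, a target of the juvenile microRNA, was instead at 4.3, 12.2 and 5.64 CPM and then at 8.21, 4.98 and 11.9 CPM. SPL3 had no unique reads in the 6 libraries and was not assessed. Of the 16 clock genes 4 rose and 1 fell. CDF1 rose from 30.1, 16.5 and 17.5 CPM to 168, 161 and 172 CPM and RVE1 from 79.7, 8.53 and 18.2 CPM to 308, 303 and 241 CPM. CCA1 was at 259, 39 and 115 CPM and then at 630, 658 and 557 CPM (log2FC 2.15, adjusted p = 0.037), with adjusted p of 0.095 without P10 replicate 2 at 9 DAS and 0.1 without replicate 3, and missed the threshold in 10 of 16 fits that each left out 1 library. The number called was 2 without P10 replicate 3 at 16 DAS and 3 without P10 replicate 2 at 9 DAS.

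**Figure D2:**
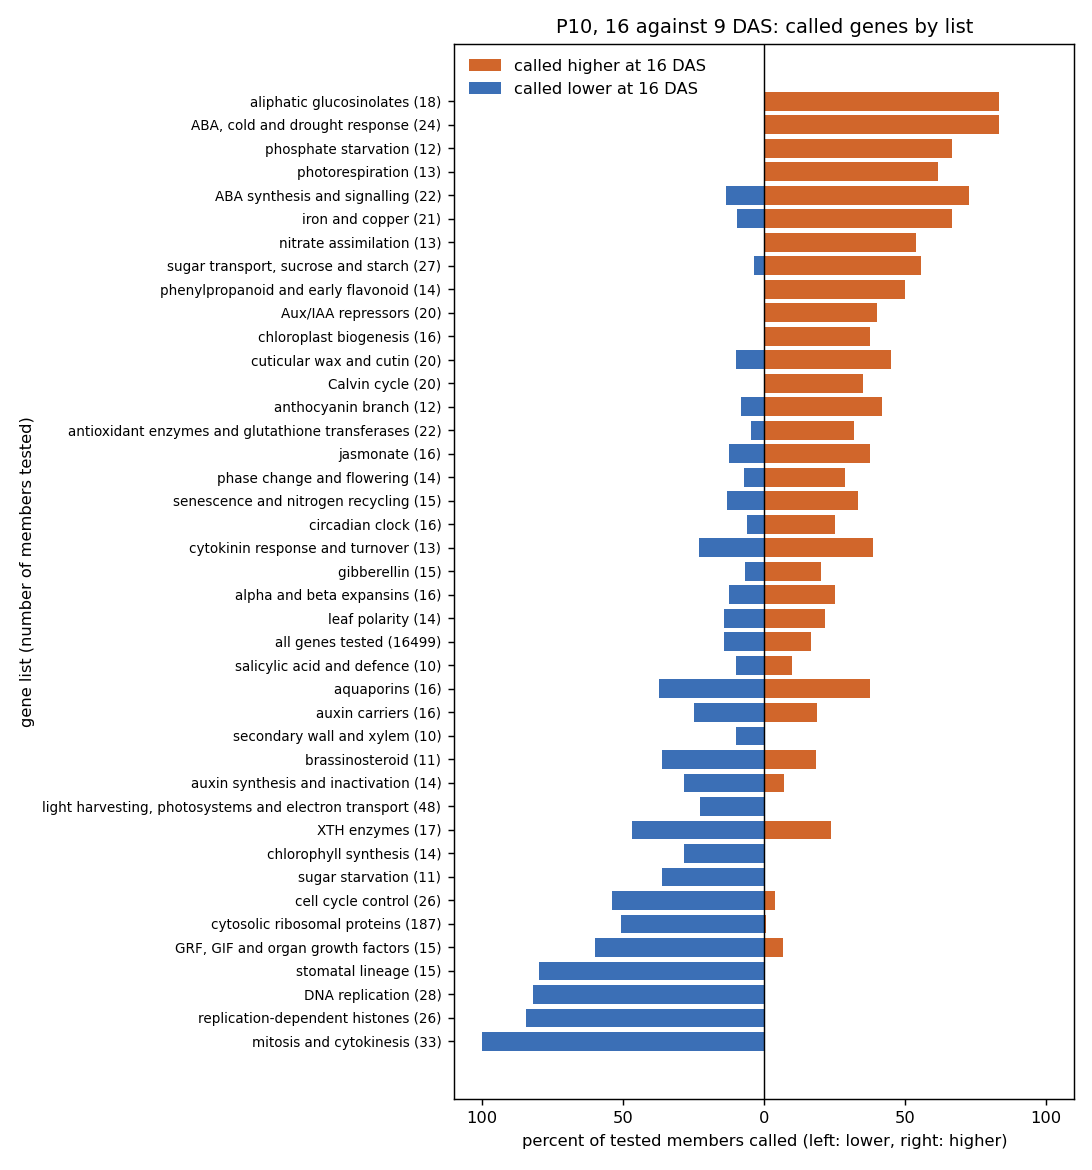
Share of the tested genes of each list that fell (blue, to the left) or rose (orange, to the right) in P10 from 9 to 16 DAS, in percent, with the number tested in brackets and the 16499 genes tested in all as their own bar. Mitosis has all 33 genes on the left and the ABA, cold and drought response has 20 of 24 on the right, against 14.4% and 16.6% of all genes.

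Set beside WT, which shares no library with it, the ageing of P10 ran along largely similar lines. In WT 5937 genes (36%) were DEGs between 16 and 9 DAS, 3077 higher (18.6%) and 2860 lower (17.3%), although scaling to library totals alone moved the share of higher genes from 51.8 to 30.2% and upper-quartile scaling to 39.9%. Of the genes that rose in P10, 1933 also rose in WT, which is 70.8% of the P10 set and 62.8% of the WT set, and 23 fell. Of those that fell in P10, 1588 fell in WT, 66.6% and 55.5%, and 15 rose. Across the 16499 genes the log2 fold changes of both genotypes had a Pearson correlation of 0.78. Both comparisons change the sequencing index along with the day. Clock genes were uneven at 9 DAS in WT too. CCA1 held 78.9, 26.2 and 225 CPM in WT at 9 DAS and 588, 672 and 614 CPM at 16 DAS. The parts of the index and of the clock in the likeness were not tested.

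The difference between the P10 change and the WT change passed the test in 776 genes (4.7%), with 343 changes higher (2.08%) and 433 lower (2.62%) in P10. With library totals alone there were 658 higher and 220 lower, at a shift of the median difference by 0.212. Of the 433 with a lower change in P10, 270 rose in WT and 187 were DEGs in WT and not in P10, and 15 fell in P10 while rising in WT. Of the 343 with a higher change, 168 rose in P10 and 172 fell in WT, and 23 did both. Across fits that each left out 1 library the number was 480 to 891, so that genes near the threshold enter and leave the set.

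**Figure D3:**
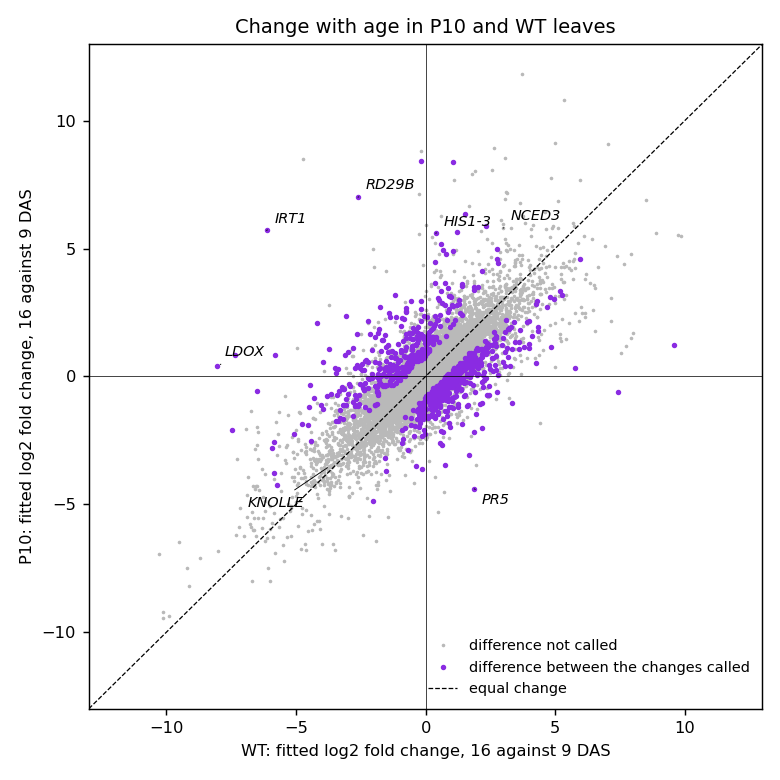
Fitted log2 fold change from 9 to 16 DAS of each of 16499 genes in P10 (vertical) against WT (horizontal), with genes whose changes differ by the test in purple and a dashed line at equal change. KNOLLE lies near the line at -3.49 and -3.67, RD29B, HIS1-3, IRT1 and LDOX lie above it and PR5 below it.

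None of 33 mitosis genes and none of 28 replication genes had a called difference, beside 4.7% of all genes, and the median changes were -3.5 in P10 and -3.61 in WT for mitosis and -1.93 and -1.25 for replication. At that share few calls would fall in lists of this size, so their absence does not show equal changes. The median difference of the replication list was -0.44. In simulated counts the test of the difference found 15 of 100 genes made to differ by 1 on the log2 scale, and 77 of 100 made to differ by 2. The genes made to differ were drawn from those well covered in every library, with the same mean level in all groups beforehand. Several mitosis genes had few reads at 16 DAS, and for such genes these shares are not known. Among the cell cycle control genes 2 of 26 had a lower change in P10, and among the histones 2 of 26 a higher one, and each count ranged from 0 to 2 when single libraries were left out, with 0 in both lists without P10 replicates 1 or 3 at 9 DAS, WT replicate 1 at 16 DAS or P10 replicate 2 at 16 DAS. KNOLLE held 128, 114 and 85.5 CPM at 9 DAS and 6.38, 10.9 and 7.45 CPM at 16 DAS in WT, a difference of 0.18 (adjusted p = 0.83). At the level of single regulators there were differences: ANT fell by 3.17 on the log2 scale in WT, 1.5 more than in P10 (SE 0.36, adjusted p = 0.021), and SMR1 rose by 2.38 in WT, 1.09 more than in P10 (SE 0.3, adjusted p = 0.043). FIL, which fell in P10, held 40.2, 39.5 and 33.3 CPM and then 32.2, 24.6 and 32.8 CPM in WT, and the difference was -1.3 (SE 0.3, adjusted p = 0.015). The call was lost for ANT in 4 of 16 fits that left out 1 library and for SMR1 in 9, with the highest adjusted p at 0.065 without WT replicate 1 at 16 DAS and at 0.18 without P10 replicate 1 at 9 DAS. For FIL it was lost without P10 replicate 3 at 16 DAS (-1.07, adjusted p = 0.05).

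The change was lower in P10 than in WT in 23 of 48 genes of light harvesting and electron transport and higher in none, with median changes of -0.53 in P10 and 0.38 in WT. PSBO1 went from 4985, 4554 and 4279 CPM to 7875, 7376 and 7599 CPM in WT, while the P10 values overlapped, and the difference was -0.77 (SE 0.18, adjusted p = 0.017). The median difference of the list was -0.77, just at the fold threshold, and the number called was 11 without P10 replicate 1 at 16 DAS, 28 without P10 replicate 3 at 16 DAS, 9 with library totals and 1 in the most conservative setting. With library totals, too, no gene of the list had a higher change in P10.

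The ABA and drought lists rose in both genotypes and went further in P10 for some members. Of 22 genes of ABA synthesis and signalling 11 rose and 5 fell in WT, and 8 had a higher change in P10, or 4 without WT replicate 3 at 16 DAS. Of 24 response genes 14 rose in WT and 4 had a higher change in P10. That count was 3 without WT replicate 3 at 9 DAS and 6 without P10 replicate 2 at 16 DAS. Over the alternatives other than leaving out a library it ranged from 2 to 8. Of all genes 2.08% had a higher change in P10. HAI1 was at 2.83, 1.48 and 7.15 CPM and then at 16.3, 5.96 and 14.9 CPM in WT, against 129 to 310 CPM in P10 at 16 DAS. The difference of 4.85 (SE 1.17, adjusted p = 0.041) missed the threshold in 13 of the 16 fits without 1 library, with an adjusted p of 0.21 without WT replicate 3 at 9 DAS. RD29B was at 0.472, 0 and 3.93 CPM and then at 0.319, 0 and 0.745 CPM in WT, a ratio of 7.36 in favour of 9 DAS (1.64 to 67.7). Its fitted difference of 9.62 (SE 1.67, adjusted p = 0.0057) rests on these few WT reads and became 7.03 with an adjusted p of 0.25 without WT replicate 3 at 9 DAS. HIS1-3 held 1.89, 1.97 and 3.93 CPM and then 4.78, 3.72 and 0.745 CPM in WT, and its difference of 5.21 (SE 0.69, adjusted p = 0.00037) passed in all 16 fits. NCED3, at 0, 1.97 and 1.07 CPM and then 7.33, 11.7 and 3.73 CPM in WT, rose in both, with a difference of 2.82 that was not called (adjusted p = 0.085).

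In the anthocyanin branch WT fell where P10 did not. Of 12 tested genes 6 fell and none rose in WT, with a median of -2.32, and 5 had a higher change in P10, or 1 without WT replicate 1 at 16 DAS. DFR in WT went from 49.1, 20.7 and 75.8 CPM to 0.638, 0.745 and 1.49 CPM, and LDOX from 37.8, 20.7 and 70.1 CPM to 0.319, 0 and 0 CPM, a ratio of 390 (69.5 to 1.54e+04), while both were at 52.1 CPM or more in every P10 library. The differences were 6.64 for DFR (SE 1.36, adjusted p = 0.023) and 8.44 for LDOX (SE 1.73, adjusted p = 0.023), the second dependent on the prior count. Without WT replicate 1 at 16 DAS the adjusted p was 0.069 and 0.085, and without WT replicate 2 at 16 DAS it was 0.07 and 0.074.

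Of 21 iron and copper genes 5 differed, 4 higher and 1 lower in P10, or 2 without WT replicate 1 at 9 DAS. Of all genes 2.08% had a higher and 2.62% a lower change in P10. IRT1 in WT had 1.89, 3.95 and 3.93 CPM at 9 DAS and none at 16 DAS, at least 9.4-fold lower, the reverse of P10, and its fitted difference of 11.84 (SE 1.85, adjusted p = 0.0017) depends on the prior count. FRO2 was at 1.42, 5.43 and 4.29 CPM and then at 3.83, 6.45 and 2.98 CPM in WT, with a difference of 4.13 (SE 0.84, adjusted p = 0.009). BHLH38, at 85.5, 32.6 and 94.8 CPM and then 15.9, 52.6 and 26.8 CPM in WT, had a difference of 3.45 (SE 0.72, adjusted p = 0.024), with an adjusted p of 0.055 without WT replicate 1 at 9 DAS, 0.053 without P10 replicate 3 at 9 DAS and 0.054 without WT replicate 3 at 16 DAS. Genes of phosphate starvation rose in 3 of 12 and fell in 2 in WT, and 3 had a higher change in P10, or 1 without WT replicate 1 at 9 DAS and 7 without WT replicate 2 at 16 DAS.

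The change was lower in P10 than in WT for a further set of genes. It was lower in 5 of 18 aliphatic glucosinolate genes and higher in none, or in 1 without P10 replicate 1 at 9 DAS. All genes had a lower change in 2.62%. The 18 genes all rose in WT, at a median of 2.68 against 1.31 in P10. Of 8 guard and myrosin cell genes 4 had a lower change and none a higher one. GASA1 went from 27.4, 26.7 and 29.7 CPM to 406, 281 and 351 CPM in WT, against 29.5 to 39.4 CPM in P10 at 16 DAS, a difference of -2.55 (SE 0.37, adjusted p = 0.00082). SWEET11 reached 357, 395 and 372 CPM in WT at 16 DAS, from 19.4, 16.3 and 22.2 CPM, a difference of -1.43 (SE 0.27, adjusted p = 0.0041). PR5 was at 3.78, 2.96 and 5.01 CPM and then at 10.2, 14.4 and 21.6 CPM in WT, so the genotypes went opposite ways, and THI2.2 at 71.8, 52.3 and 91.2 CPM and then at 94.4, 120 and 136 CPM, with differences of -6.28 (SE 0.87, adjusted p = 0.00037) and -2.86 (SE 0.36, adjusted p = 0.00033). For GASA1, SWEET11, PR5 and THI2.2 the P10 libraries at 16 DAS lay below every WT library at that day. These 4 calls held in each fit that left out 1 library.

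**Figure D4:**
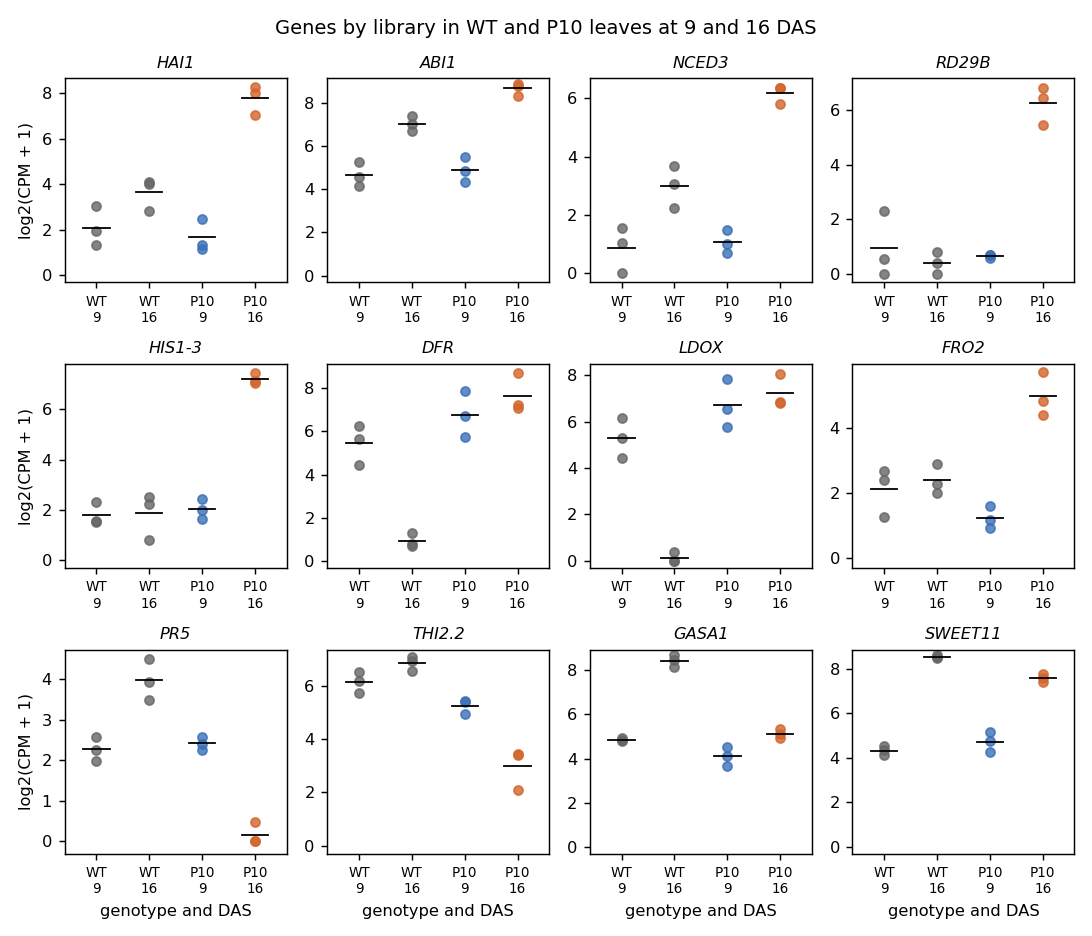
Level of 12 genes whose changes were compared between genotypes, as log2(CPM + 1) on the vertical axis for each library of WT and P10 at 9 and 16 DAS, with a bar at each mean of 3 libraries. HAI1 in P10 at 16 DAS lies between 129 and 310 CPM and between 5.96 and 16.3 CPM in WT, while GASA1 lies between 29.5 and 39.4 CPM in P10 and between 281 and 406 CPM in WT.

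P21, the second line with the transgene, was put beside P10 after results were seen, because its libraries carry the same index at both days. Its PID level went the other way, from 940 and 961 CPM at 9 DAS to 368 and 631 CPM at 16 DAS (replicates 2 and 3). In the headers of the values, P21 replicate 2 at 9 DAS differs from all other libraries used in the tag after the index. The part of that tag was not tested. In P21 3909 genes (23.7%) were DEGs, 2091 higher (12.7%) and 1818 lower (11%), of which 53.5% were higher, or 22.3% with library totals and 42.8% with upper-quartile scaling. Of the genes that rose in P10 1113 also rose in P21 (40.8% of P10, 53.2% of P21) and 72 fell, and of those that fell 937 also fell (39.3% and 51.5%) and 50 rose. The correlation of log2 fold changes across 16499 genes was 0.56. The P10 change differed from that of P21 in 2100 genes (12.7%), 947 higher (5.74%) and 1153 lower (6.99%) in P10, with 45.1% higher and 72.4% under library totals. In P10 the index changes with the day and in P21 it does not, so line and index cannot be told apart in this difference. The same holds for the differences by list and gene below.

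Mitosis fell in both lines, 30 of 33 genes in P21, and 12 and 11 of 15 stomatal lineage genes fell in P10 and P21. DNA replication genes fell in 23 of 28 in P10, against none of 28 in P21, and 15 of the 28 had a lower change in P10 by the test of the difference. PCNA1 in P21 was at 10.7 and 8.57 CPM at 9 DAS, below every P10 library of that day, and at 7.46 and 11.1 CPM at 16 DAS. At 9 DAS the P21 and P10 libraries carry different indexes, and the part of the index in these differences was not tested. Ribosomal protein genes had a lower change in P10 in 145 of 187, with medians of -0.77 in P10 and 0.33 in P21, where library totals alone would shift all P21 changes by -0.387.

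Of the 24 genes of the ABA, cold and drought response 7 rose in P21, at a median of 0.32, and 12 had a higher change in P10. HAI1 was at 3.1 and 16.2 CPM and then at 13.6 and 15.1 CPM in P21, and RD29B at 0 and 1.59 CPM and then at 0 and 0.307 CPM, far under the P10 values at 16 DAS. Light-harvesting genes rose in 9 of 48 and fell in 2 in P21, and 27 had a lower change in P10. In the anthocyanin branch 8 of 12 genes fell in P21, LDOX from 122 and 365 CPM to 0.439 and 0.615 CPM. BHLH38 fell in P21, from 370 and 458 CPM to 18.9 and 13.2 CPM, and IRT1 ended with no reads. GASA1 rose in P21 as in WT, from 30.7 and 14.3 CPM to 283 and 411 CPM, 3.96 on the log2 scale against 1.07 in P10, a called difference. In these genes the old P10 leaves stood apart from the old leaves of P21 and of WT alike.

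**Figure D5:**
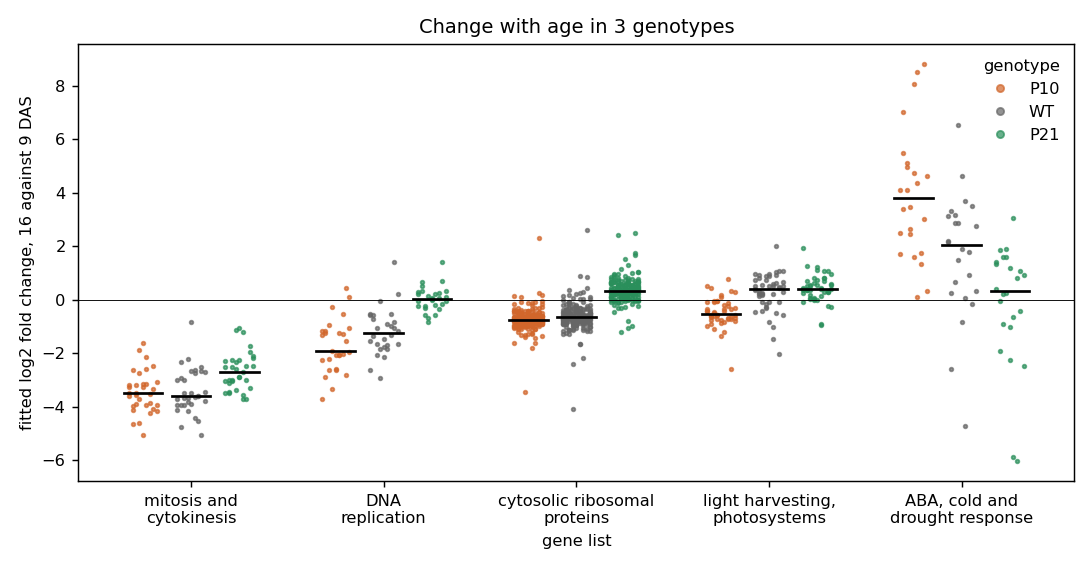
Fitted log2 fold change from 9 to 16 DAS (vertical) of the members of 5 lists in P10, WT and P21, each point a gene and each bar the median of the list. Mitosis has medians of -3.5, -3.61 and -2.72, DNA replication of -1.93, -1.25 and 0.02, ribosomal proteins of -0.77, -0.66 and 0.33, light harvesting of -0.53, 0.38 and 0.41, and the ABA response of 3.78, 2.03 and 0.32.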

How the data were processed

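Total RNA of the first leaf pair was made into stranded poly(A) libraries and sequenced with paired ends. Per the labels and the study's methods, the authors mapped the reads to the Arabidopsis genome (TAIR 10) in CLC Genomics Workbench and deposited, for each gene and library, raw counts of unique gene reads, which are the counts used here, and of total gene reads, which add reads shared between genes. No counting strand is given in the sources used here, so antisense and overlapping genes may share counts. The authors' normalized values, fold changes and p-values in the same tables were not used, among them 428 per-sample columns.

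Counts of all 16 libraries were fitted with edgeR 4.0.16 (R 4.3.3): TMM scaling, filterByExpr (16499 of 28642 genes kept), 1 mean per genotype and day, robust quasi-likelihood tests and Benjamini-Hochberg adjustment over all tested genes, at thresholds of 0.05 and 0.75 (log2), with 10 residual degrees of freedom and a common biological coefficient of variation of 18.8%. The adjusted p-values measure the spread between the labelled replicates. The change in P10 minus that in WT was tested as a contrast of the same fit. P21 and the P10 change minus the P21 change were added after results were seen. The scripts were tested on simulated data. DESeq2 1.42.0, other scalings and filters, total reads, a replicate block and fits without each library were the alternatives.

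The members and gene lists were chosen with earlier results of these data known. Named genes are PID, 58 genes set as key members, the 10 largest rises and falls among DEGs that average at least 50 reads and do not overlap between days, the 3 largest changes of each list with 3 or more DEGs, and the 5 largest differences from WT in each direction, 197 genes in all, with marker genes beside them. The 48 process lists and 7 marker lists come from textbook knowledge, and the ribosomal list from the 206 loci annotated so. Annotation was matched to RefSeq (28009 of 28642 identifiers), whose build TAIR10.1 gave the promoter bases; gene positions are those of the deposited tables. Where a group had no reads, a bound allows 3 reads over the group, and for 1 to 3 reads a ratio with a 95% interval for counting error alone is given.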

Additional observations from a re-analysis of the deposited data

Results flagged for a closer look

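For 29 of the named genes the change from 9 to 16 DAS differed between P10 and WT by the test of the difference itself, and each value is the P10 change minus the WT change on the log2 scale (edgeR, 3 libraries per group). With a higher change in P10 were IRT1 at 11.84, RD29B at 9.62, LDOX at 8.44, DFR at 6.64, HIS1-3 at 5.21, HAI1 at 4.85, FRO2 at 4.13, BHLH38 at 3.45 and ANT at 1.5, all described above. MBP1, the myrosinase-binding protein that rose in P10, fell from 31.7, 15.3 and 32.9 CPM to 3.51, 3.23 and 2.24 CPM in WT, a difference of 5.44 (SE 0.79, adjusted p = 0.0034). VSP2, a vegetative storage protein induced by jasmonate, fell by 0.85 in P10, a call lost without P10 replicate 2 at 9 DAS (-0.75) or at 16 DAS (-0.66), and by 4.32 in WT, a difference of 3.47 (SE 0.54, adjusted p = 0.00094). APL3 of starch synthesis differed by 2.89 (SE 0.63, adjusted p = 0.025), IAA28 by 1.79 (SE 0.47, adjusted p = 0.033) and EBF1, which degrades ethylene factors, by 0.83 (SE 0.21, adjusted p = 0.029).

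PID itself differed by 1.2 (SE 0.34, adjusted p = 0.044), with a mean of 5.34 CPM at 9 DAS and 3.71 CPM at 16 DAS in WT, and its reads in P10 include the transgene. The call was lost in 13 of the 16 fits that left out 1 library, with adjusted p up to 0.13.

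With a lower change in P10 were PR5 at -6.28, THI2.2 at -2.86, GASA1 at -2.55, SWEET11 at -1.43, FIL at -1.3, SMR1 at -1.09 and PSBO1 at -0.77, also described above. BR6OX2 of brassinosteroid synthesis, which fell in P10, held 33.1, 33.1 and 20.7 CPM and then 23.3, 28.8 and 25.3 CPM in WT, a difference of -2.18 (SE 0.34, adjusted p = 0.0009). TGG2 held 445, 550 and 455 CPM and then 505, 411 and 420 CPM in WT, a difference of -0.98 (SE 0.2, adjusted p = 0.0069). TIP2;2 reached 613, 523 and 643 CPM in WT at 16 DAS against 108 to 152 CPM in P10, a difference of -2.08 (SE 0.5, adjusted p = 0.032). AT2G41090, a calcium-binding protein, was at 132, 167 and 118 CPM and then at 73.9, 233 and 122 CPM in P10 and rose from 79.4, 31.1 and 73.3 CPM to 407, 355 and 517 CPM in WT, a difference of -2.74 (SE 0.55, adjusted p = 0.017).

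AT3G18773, a RING protein, differed by -2.85 (SE 0.66, adjusted p = 0.022), MT1C, a metallothionein, by -2.71 (SE 0.62, adjusted p = 0.02) and RAV1, a growth-repressing factor, by -3.25 (SE 0.83, adjusted p = 0.049). RAV1 went from 23.3, 37.5 and 15.7 CPM to 6.57, 6.9 and 7.92 CPM in P10 and from 12.8, 38 and 26.5 CPM to 53.2, 52.9 and 102 CPM in WT, but the call was lost in 14 of the 16 fits, with adjusted p up to 0.11.

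Among the other differences, TIP2;2 lost its call in 9 fits (adjusted p up to 0.098, without P10 replicate 1 at 9 DAS), EBF1 in 7 (up to 0.081, without P10 replicate 3 at 16 DAS), IAA28 in 6 (up to 0.14, without WT replicate 3 at 9 DAS), APL3 in 5 (up to 0.074, without WT replicate 1 at 9 DAS), PSBO1 in 5 as its size passed under 0.75 (to -0.71, without P10 replicate 2 at 16 DAS), AT3G18773 in 4 (up to 0.075, without P10 replicate 1 at 9 DAS) and MT1C in 1 (0.096, without the same library). None of the 16 fits lost the call of AT2G41090, BR6OX2, FRO2, GASA1, HIS1-3, IRT1, MBP1, PR5, SWEET11, TGG2, THI2.2 or VSP2. The index changes with the day in both genotypes alike.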

How the results depend on the processing

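Requiring the fold change to pass 0.75 within the test itself (glmTreat) left 2662 DEGs in P10, 3324 in WT and 78 differences between their changes. Leaving out each library in turn gave 4383 to 5244 DEGs in P10, with the lowest without P10 replicate 3 at 16 DAS, 5428 to 6052 in WT and 480 to 891 differences. The differences fell to 485 without WT replicate 1 at 9 DAS, 487 without P10 replicate 1 at 9 DAS, 480 without WT replicate 1 at 16 DAS and 499 without P10 replicate 1 at 16 DAS. DESeq2 called 5067 in P10, 5856 in WT and 789 differences. With 9 DAS limited to replicates 1 and 3 there were 4716, 5532 and 548.

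Library totals shifted the median log2 fold change by -0.128 in P10, -0.34 in WT and 0.212 in the difference, and higher genes made up 43.9, 30.2 and 74.9% of those called, against 53.4, 51.8 and 44.2%. Upper-quartile scaling shifted it by -0.116 in P10 and -0.173 in WT. No named gene that was called in the main fit or in the alternative reversed its direction between them, in P10 or in the difference. Genes called in neither fit were not checked for direction. In P10, calls of 29 named genes were lost under at least 1 alternative other than leaving out a library, and calls of 20 by leaving out a library.

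The replicate numbers gave no pairing: the correlations of same-numbered P10 libraries between days were 0.00075, 0.0176 and 0.0214, and those of WT 0.0555, -0.0604 and -0.032. A replicate block gave 5075 DEGs in P10, 5909 in WT and 674 differences. Depth limits genes with few reads: 3 reads over a P10 group are 0.34 CPM at 9 DAS and 0.472 CPM at 16 DAS.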

Other observations

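Of 4 tested heat shock genes 1 rose in P10 and all 4 in WT; the call in P10 was lost or joined by others as libraries were left out (0 to 3 genes), and none of the 4 had a called difference between P10 and WT, with a median difference of -1.52. AOX1A, the alternative oxidase of mitochondria induced by respiratory stress, rose from 11.9, 11.3 and 4.39 CPM to 63.2, 51 and 63 CPM in P10 (log2FC 2.57 ± 0.25 SE, adjusted p = 1.2e-07) and by 1.56 in WT, a difference of 1.01 that was not called (adjusted p = 0.13). EXL2, a protein of the EXORDIUM family, fell from 89.3, 79.2 and 94 CPM to 38.6, 50.2 and 20.6 CPM in P10.

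Before 6 of the 16 clock genes (37.5%) the evening element, searched as AAAATATCT on both strands of 250 bases, was found, against 2.53% of all genes. Among the 5 clock genes that were DEGs it was found before 1 (20%).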
